A study of Mus musculus with 4 samples.

Results

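Some alleles left by Cas9 at a cut carried both a deletion and a short insertion, and these alleles are the subject here. They were taken from amplicon sequencing of 2 target sites, Site 7 and Site 9, with 2 replicate libraries each. E14 cells, a mouse embryonic stem cell line (mESC) of the 129/Ola strain, were grown without feeders in LIF medium. All 4 libraries came from pools of such cells transfected with pX plasmids, which carry Cas9 nuclease and, as the methods state, 1 sgRNA per pool, followed by puromycin or GFP selection. Untreated libraries were not analysed here, so no background from uncut cells stands beside the values. An allele was a member when its alignment had at least 1 internal gap in the read (a deletion) and at least 1 in the reference (an insertion), each insertion was shorter than 40 bp and at least 1 lay within 10 bp of the cut. Of 76510 allele rows in the 4 libraries, 4599 were members, and they held 29218 of 1636791 aligned reads. The libraries held between 380601 and 447620 aligned reads. Nothing in the labels says that replicates came from separate cultures, so tests between libraries may measure technical spread alone.

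When Cas9 breaks both DNA strands, the ends can be trimmed, filled in and rejoined by end-joining pathways. Some joins also gain bases that were not at the break. Polymerase theta, which acts in microhomology-mediated end joining (MMEJ), can let an end pair briefly with nearby sequence and copy it, on the same or the opposite strand, before the ends are joined. Other polymerases can add bases without such a template, and fragments of DNA from elsewhere in the cell can be caught in the break.

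The sequences around both cuts are shown because inserts were compared with them. All coordinates are on mm9, sequences are written 5′ to 3′ on the plus strand, and capitals mark the protospacer with its PAM. The Site 7 window covers chr16:92520155-92520214, with the cut between 92520184 and 92520185. The cut falls inside Clic6 (ENSMUSG00000022949.3), a gene of the chloride intracellular channel family, between its exons, while the sample labels call the site by the gene Runx1. The Site 9 window covers chr6:92370092-92370151, with the cut between 92370121 and 92370122. The cut falls in an intron of Prickle2 (ENSMUSG00000030020.7), a planar cell polarity gene, 15 bp from the exon that spans 92370137 to 92370340.
Site 7: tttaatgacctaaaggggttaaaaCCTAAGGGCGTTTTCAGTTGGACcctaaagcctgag
Site 9: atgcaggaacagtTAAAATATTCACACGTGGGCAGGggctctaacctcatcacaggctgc

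The alleles with the highest mean percent of modified reads over both replicates of a site show what kind of change was found. In each line below the capitals are the inserted bases and the lower-case letters are the retained flanks, 20 bp on each side, so the replaced bases are missing from the line. At Site 7 the first by this measure replaced aagggc (chr16:92520182-92520187) with 5 bases and had 77 reads in replicate 1 and 55 in replicate 2. The next replaced ctaag (chr16:92520180-92520184) with GCC and had 74 and 53 reads. At Site 9 one allele replaced cgtgg (chr6:92370118-92370122) with 33 bases and had 224 reads in replicate 2 and 0 in replicate 1. Another replaced ggcagg (chr6:92370122-92370127) with ATGA and had more reads, 246 and 25. Their mean percents, 0.0489 ± 0.0692 and 0.0483 ± 0.0528 (SD, n = 2), differ by far less than the spread.
Site 7, aagggc replaced: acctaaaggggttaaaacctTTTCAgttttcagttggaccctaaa
Site 7, ctaag replaced: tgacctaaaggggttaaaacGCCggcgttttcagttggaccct
Site 9, cgtgg replaced: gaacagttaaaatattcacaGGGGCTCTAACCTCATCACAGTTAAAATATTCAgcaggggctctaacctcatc
Site 9, ggcagg replaced: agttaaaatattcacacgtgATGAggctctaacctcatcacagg

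These alleles were a small share of modified reads, meaning reads the authors' program called edited, and the share was larger at Site 9. At Site 7 they made up 1.23% (95% Wilson interval 1.19 to 1.26) of modified reads in replicate 1 and 1.00% (0.971 to 1.03) in replicate 2, a mean of 1.11% ± 0.160 (SD, n = 2). At Site 9 they made up 3.43% (3.36 to 3.49) and 3.38% (3.31 to 3.46), a mean of 3.405% ± 0.0319 (SD, n = 2). Neither Site 7 library reached either Site 9 library, and the sites lay 2.29 percentage points apart on average. The share of aligned reads called modified also differed. It was 96.5% and 96.4% for Site 7, against 64.2% and 60.1% for Site 9. Over all aligned reads the members made up 1.27% ± 0.114 (SD, n = 2) at Site 7 and 2.29% ± 0.116 at Site 9, a difference of 1.02 points, and the libraries still did not overlap. An exact two-sided permutation of the 4 library labels gave p = 0.333, the smallest value this test can give with 2 libraries per site, so it cannot pass 0.05 here. Reads from PCR without molecular identifiers are not independent molecules, so the intervals cover counting error only.

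The share depended on what counts as both a deletion and an insertion. The deposited tables have their own columns of deleted and inserted bases, and rows in which both were above 0 held only 0.000782% and 0.00429% of modified reads at Site 7, and 0.0710% and 0.0992% at Site 9. The difference between sites on that definition was 0.0826 points. Part of the members were also called unmodified by the authors' program, namely 12.03% and 18.5% of member reads at Site 7 and 7.18% and 7.76% at Site 9. These reads were counted as members but not in the shares of modified reads.

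**Figure D1:**
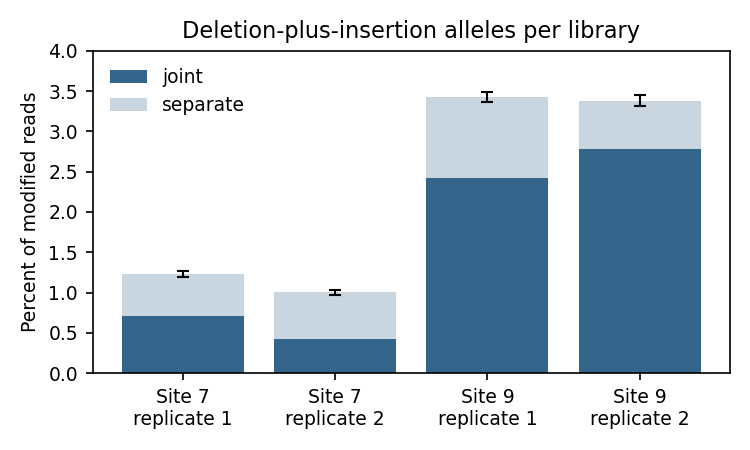
Alleles with a deletion and a short insertion as a percent of modified reads in each library. Dark bars are joint events, light bars are alleles whose gaps lay apart, and error bars are 95% Wilson intervals of the total, from 1.00% in Site 7 replicate 2 to 3.43% in Site 9 replicate 1.

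The gaps of one alignment did not always belong to 1 change. The insertion nearest the cut was joined step by step with gaps and mismatches, each at most 2 retained reference bases from the stretch already joined. A joined deletion could thus lie more than 2 bases from the insertion. An event was called joint when a deletion was among the joined changes and both deleted and inserted bases remained after shared ends were trimmed. Joint events held 18292 member reads (62.6%). They made up 52.3% and 40.9% of member reads at Site 7 and 66.2% and 77.2% at Site 9, so the libraries of the 2 sites did not overlap. As a percent of modified reads, joint events came to 0.569% ± 0.197 (SD, n = 2) at Site 7 and 2.60% ± 0.253 (SD, n = 2) at Site 9.

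The other 10926 reads had gaps that lay further apart, and some were a common deletion with a 1-bp insertion a few bases away. The most abundant at Site 7 had an A inserted between 92520174 and 92520175, in a run of A, beside a 2-bp deletion (92520183 to 92520184). It had 133 and 123 reads, against 35662 and 33317 reads of the same deletion alone, or 0.372% and 0.368% of reads with that deletion. The most abundant at Site 9 had an A inserted between 92370126 and 92370127 beside an 8-bp deletion (92370116 to 92370123), with 49 and 106 reads, which were 0.247% and 0.654% of reads with that deletion. Longer inserts also occurred here. At Site 9 a 15-bp insert that matches the right flank, GCTCTAACCTCATCA, stood 3 bp from a 5-bp deletion in 140 reads of replicate 2 and in 0 reads of replicate 1. The bases kept between this deletion and this insert, ggg, continue the match to the right flank, so the place of the gaps may depend on the alignment. The lengths, base composition and copying below were measured in joint events only, so such inserts are not in the copying counts.

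Joint events were many, and few were common. Site 7 had 140 distinct events in replicate 1 and 356 in replicate 2, and Site 9 had 252 and 199. Of these, 70 and 96 at Site 7 and 90 and 87 at Site 9 had 1 read. Alleles that differ by a base counted as separate events, and sequencing or PCR errors were not told apart from them. The 5 most abundant events held 13.9% ± 0.826 (SD, n = 2) of joint reads at Site 7 and 10.7% ± 0.185 (SD, n = 2) at Site 9. Few events were seen in both replicates. At Site 7, 19 events were shared, which is 13.6% of those in replicate 1 and 5.34% of those in replicate 2. At Site 9, 14 events were shared, 5.56% and 7.04% of the events in each replicate. Events with at least 10 reads in both replicates numbered 4 at Site 7 and 6 at Site 9, although the libraries had 63 and 49 such events at Site 7 and 146 and 103 at Site 9 when counted alone. An event with many reads in 1 library and 0 in the other, such as the 33-bp insert above, was therefore common among the abundant ones.

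The median of deleted minus inserted bases lay within 1 bp of 0 in each library, but the summed bases were not balanced at Site 9. Over all joint reads, Site 9 had 78664 inserted and 57573 deleted bases in replicate 1, and 75590 and 60331 in replicate 2. Site 7 had 25556 inserted and 24168 deleted bases in replicate 1, and 18000 and 18644 in replicate 2. At each site the median number of deleted bases per joint read was 7 in replicate 1 and 8 in replicate 2. The median number of inserted bases was 7 and 6 in the Site 7 replicates and 9 in either replicate of Site 9. The median difference, deleted minus inserted, was 1 bp in each Site 7 replicate, while Site 9 had 0 and -1 bp. Its mean over the 4 libraries was 0.25 bp (exact two-sided sign-flip permutation test over 4 libraries, p = 1). Most joint reads still changed length. At Site 7, 54.1% ± 2.93 (SD, n = 2) lost bases, 41.7% ± 3.71 gained bases and 4.16% ± 0.782 kept their length. At Site 9, 42.7% ± 1.196 (SD, n = 2) lost bases, 50.8% ± 1.67 gained bases and 6.49% ± 0.472 kept their length.

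The distribution of deleted lengths was alike at both sites, and that of inserted lengths had a longer tail at Site 9. Deletions of 3 to 9 bp were in 63.1% ± 6.42 (SD, n = 2) of joint reads at Site 7 and 62.9% ± 8.85 at Site 9. Inserts of at least 20 bp were in 9.82% ± 0.621 (SD, n = 2) of joint reads at Site 7 and 19.1% ± 3.28 at Site 9, with no overlap between the libraries of the sites. Inserts of 1 to 2 bp were in 6.74% ± 1.89 and 5.60% ± 0.407. Across distinct events, the deleted and inserted lengths were weakly related, with Spearman's rho of 0.353 and 0.206 in the Site 7 replicates and 0.0590 and 0.163 in those of Site 9. These correlations are a description over 140, 356, 252 and 199 events that share a library and a cut.

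**Figure D2:**
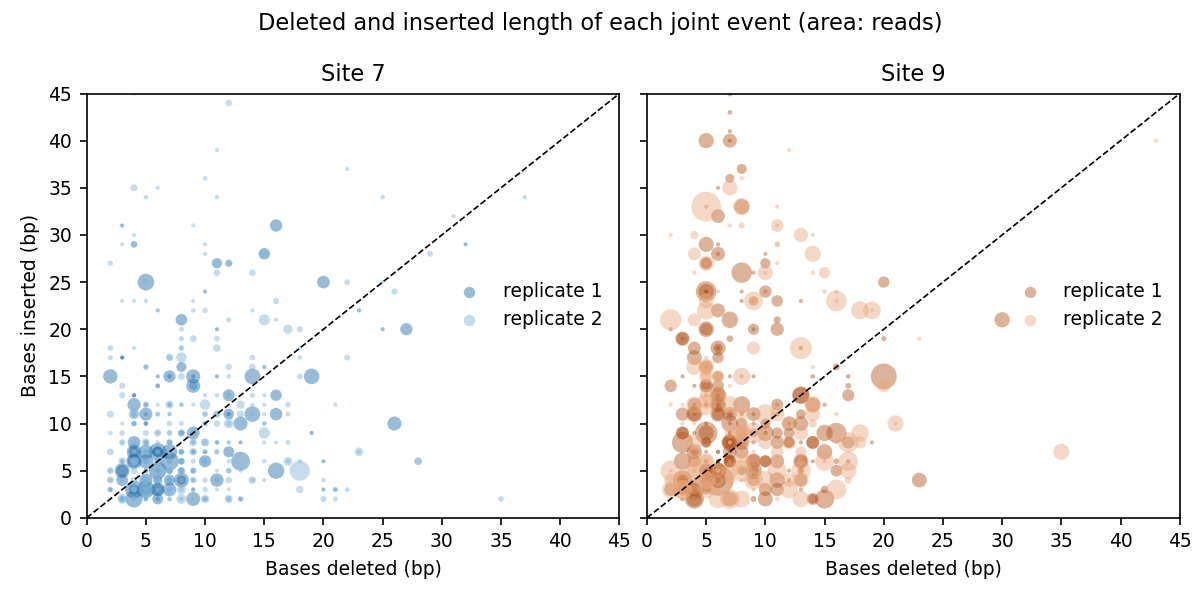
Deleted length (x axis, bp) and inserted length (y axis, bp) of each joint event at both sites, with the area of a point growing with its reads in that replicate and the dashed line marking equal lengths. Points lie on both sides of the line, Site 9 has more events with at least 20 inserted bases over a short deletion, and 7 of 914 events lie beyond 45 bp and are not drawn.

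The deletions of joint events were then compared with simple deletions (1 deletion and no insertion) in the same library. The median simple deletion was 4 and 5 bp in the Site 7 replicates and 8 bp in either replicate of Site 9. The deletions of joint events were thus 3 bp longer in both Site 7 libraries, 1 bp shorter in Site 9 replicate 1 and equal in Site 9 replicate 2. The mean difference was 1.25 bp (exact two-sided sign-flip permutation test, p = 0.5, adjusted p = 0.6 over 6 comparisons). Counting each distinct deletion once in place of its reads turned the difference to -21.5 bp, so the direction depends on the weight given to abundant alleles.

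Weighted by reads, inserts in joint events were longer than insertions without a deletion. The definition bears on this direction. A member needed a gap in the reference, so an inserted base aligned as a mismatch beside a deletion was not counted. Short inserts could be missed this way in joint events but not in insertions without a deletion, so the comparison cannot show that joint inserts are longer. The median insertion without a deletion was 1 bp in each replicate of Site 7 and 2 bp in each of Site 9. The inserts of joint events were 6 and 5 bp longer at Site 7 and 7 bp longer in both Site 9 libraries, a mean difference of 6.25 bp. The direction was the same in 4 of 4 libraries (exact two-sided sign-flip permutation test, p = 0.125, the smallest value 4 libraries can give, adjusted p = 0.25). Part of this size came from joining, because unjoined gap runs gave 3.25 bp and unjoined mismatches 3.5 bp, with median inserts of 4, 4, 6 and 5 bp for unjoined gap runs. Counting each distinct insert once turned the difference to -4.75 bp.

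Position near the cut was part of how joint events were defined. An insertion had to lie within 10 bp of the cut, and a deletion had to be joined to it in steps of at most 2 retained bases. The shares that follow therefore describe the events and are no test. The replaced interval reached the cut in 89.7% and 75.3% of joint reads at Site 7 and in 95.01% and 91.1% at Site 9. It contained the cut with bases lost on both sides in 60.1% ± 4.42 (SD, n = 2) of joint reads at Site 7 and 71.9% ± 0.158 at Site 9. The base just left of the cut was lost in 82.6% and 70.6% of joint reads at Site 7 and in 80.1% and 82.7% at Site 9. Bases were lost only on the left in 27.7% ± 3.596 and only on the right in 12.2% ± 0.821 (SD, n = 2) of joint reads at Site 7. At Site 9 these shares were 12.8% ± 3.99 on the left and 15.3% ± 3.83 on the right, so the left side was used more often alone at Site 7 and neither side was at Site 9 beyond the spread.

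Inserted bases held less G and C than the bases they replaced. At Site 9, GC content was 34.6% and 33.9% in inserted bases and 71.0% and 69.0% in deleted bases. At Site 7 it was 44.0% and 44.6% in inserted bases and 50.7% and 46.8% in deleted bases. The window of 50 bp on each side of the cut has a GC content of 52% at Site 9 and 50% at Site 7. The difference, inserted minus deleted, was -36.4 and -35.1 percentage points at Site 9 and -6.67 and -2.21 points at Site 7, a mean of -20.1 points. Inserted bases were lower in 4 of 4 libraries (exact two-sided sign-flip permutation test, p = 0.125, adjusted p = 0.25). The bases around a cut are fixed by the guide, and at Site 9 G alone made up 49.2% ± 1.06 (SD, n = 2) of deleted bases and 15.2% ± 2.34 of inserted bases. In the inserts of Site 9, A made up 34.0% ± 1.19 and T made up 31.7% ± 1.75.

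Copying of flanking sequence was tested next. Each distinct insert of 6 to 39 bp was searched, whole and on both strands, in the 50 bp on each side of its own cut. The same inserts were searched around the cut of the other site as a control. An insert found in its own window is called copied below, which describes a match of letters and does not show where the bases came from. In Site 7, 7 of 88 inserts (7.95%) in replicate 1 and 29 of 224 (12.9%) in replicate 2 were copied. In Site 9, 27 inserts were copied in each replicate, out of 182 (14.8%) and out of 140 (19.3%). In the window of the other site, 2.27% and 1.79% of the Site 7 inserts and 0.549% and 0% of the Site 9 inserts were found. Of all possible sequences of the same lengths, the own window holds 0.805% and 0.856% at Site 7 and 0.619% and 0.463% at Site 9. Inserts with 1 read are counted in these shares. With only rows of at least 10 reads, 9.76% and 13.8% of inserts were copied at Site 7 and 22.1% and 31.4% at Site 9. The other site's window then held 2.44% and 0% of the Site 7 inserts and 0% of the Site 9 inserts in either replicate.

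The own window thus held more inserts than the other site's window in 4 of 4 libraries, by 5.68 and 11.2 percentage points at Site 7 and 14.3 and 19.3 points at Site 9. The mean difference was 12.6 points (exact two-sided sign-flip permutation test, p = 0.125, the smallest value possible, adjusted p = 0.25). All 22 alternative settings of the search, of the events counted or of the libraries used kept this direction, with differences from 5.92 to 30.2 points. They reuse the same inserts, so they are not independent of each other. Weighted by reads, 12.7% and 17.9% of Site 7 joint reads with an insert of 6 to 39 bp had a copied insert, and 25.1% and 31.1% of those at Site 9. Among inserts of at least 10 bp, 1.89% and 2.44% at Site 7 and 12.3% and 10% at Site 9 were copied, and none was found in the window of the other site.

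The libraries of own and other window did not overlap from 4 bp at Site 7 and from 5 bp at Site 9, up to 19 bp. At Site 7 the range of 12 to 19 bp rested on 1 copied insert in replicate 1 and 2 in replicate 2. For inserts of 5 bp the share in the own window was 34.6% ± 6.46 (SD, n = 2) at Site 7 and 31.8% ± 7.20 at Site 9, against 13.7% ± 5.23 and 11.9% ± 1.98 in the other window. For inserts of 8 to 11 bp it was 7.38% ± 3.70 (SD, n = 2) at Site 7 and 25.2% ± 9.07 at Site 9, and 0% in the other window. Inserts of 3 bp cannot be read this way, because the windows hold 90.6% of all 3-bp sequences at Site 7 and 84.4% at Site 9. From 20 to 39 bp it was 0% at Site 7 and 1.32% ± 1.86 (SD, n = 2) at Site 9.

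**Figure D3:**
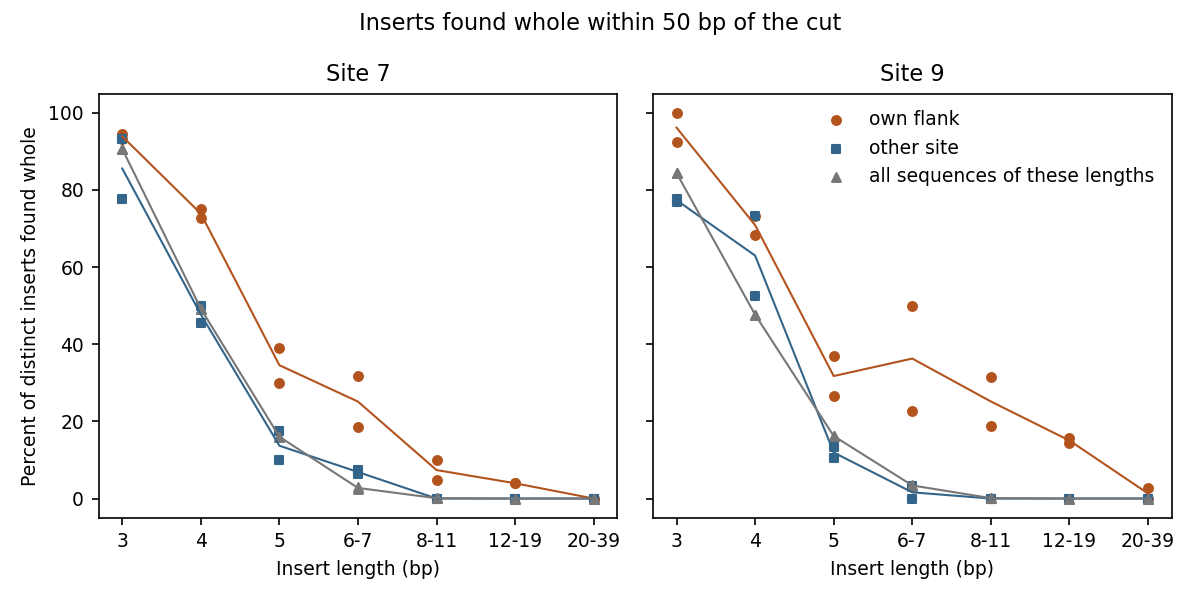
Percent of distinct inserts found whole within 50 bp of a cut (y axis) by insert length in bp (x axis). Points are libraries and lines are site means for the own flank, the other site's flank and the share of all sequences of those lengths that the own window holds. At 12 to 19 bp the own flank still held a mean of 3.96% ± 0.0555 (SD, n = 2) of inserts at Site 7 and 15.04% ± 1.06 at Site 9, with 0% in the other flank. These were 1 of 25 and 2 of 51 inserts at Site 7 and 7 of 49 and 6 of 38 at Site 9, too few for the SD to measure precision.

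Some inserts held a stretch of the flank without being a whole copy. A match of at least 8 bp to the own window was in 13.6% and 16.1% of Site 7 inserts of 6 to 39 bp and in 35.2% and 38.6% of Site 9 inserts. These shares include whole copies of at least 8 bp, and inserts of 6 to 7 bp are too short for such a match. In the other window it was in 0% and 2.68% of Site 7 inserts and in 2.20% and 1.43% of Site 9 inserts. The 33-bp insert of Site 9 shown above was made of such stretches. Its first 21 bases match chr6:92370126-92370146, right of the cut, and its last 12 bases match chr6:92370104-92370115, left of the cut, both on the same strand. It had 224 reads in replicate 2 alone.

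Copied inserts had matches on both strands. Over the 2 replicates, Site 7 had 39 events with a copied insert, of which 13 matched the same strand and 26 the opposite strand. Site 9 had 54 such events, 29 on the same strand and 25 on the opposite strand. The matching sequence lay within 20 bp of the cut in 82.1% of these events at Site 7 and 79.6% at Site 9. Its median distance from the cut was 7 bp and 9 bp. In 69.2% of these events at Site 7 and 74.1% at Site 9 the match went on for at least 2 bp beyond the insert, into the retained flank on either side. No count of such longer matches in a control was made.

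The most abundant copied inserts show both orientations. They are printed as before, with the insert in capitals, and the place where the insert was found is named beside each. In Site 9 the insert GTTAAAATATTCA replaced cgtggg (chr6:92370118-92370123) in 64 reads of replicate 1 and 70 of replicate 2, one of the few events with similar reads in both. It matches chr6:92370103-92370115 on the same strand, and the match through the junction is 18 bp long. This stretch was matched often, since 17 of the 54 copied inserts of Site 9 share at least 6 bases of their source with it. A 15-bp insert replaced 20 bp right of the cut (chr6:92370127-92370146) in 168 reads of replicate 1 and 0 of replicate 2. It matches chr6:92370157-92370171 on the opposite strand, with a match of 23 bp through the junction. These 23 bases also lie whole within the inverted stretch of the Site 9 example printed further below, which had 106 reads in replicate 1. The flanks printed beside this insert are reference bases, and differences further out in a read are not shown. Whether the same reads carry both changes was not tested. In Site 7 the insert CCTTTA replaced taag (chr16:92520181-92520184) in 58 and 19 reads. It matches chr16:92520165-92520170 on the opposite strand, with a match of 12 bp through the junction, and 7 of the 39 copied inserts of Site 7 share at least 6 bases of their source with this stretch or the base before it.
Site 9, same strand: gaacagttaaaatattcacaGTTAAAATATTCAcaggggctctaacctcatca
Site 9, opposite strand: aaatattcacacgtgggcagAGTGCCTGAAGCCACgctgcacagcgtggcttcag
Site 7, opposite strand: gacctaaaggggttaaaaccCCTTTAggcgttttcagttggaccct

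Copied inserts on the same strand were rarer among the reads of Site 7. They were in 2 and 40 reads of its replicates, against 228 and 169 reads of opposite-strand copies. The most abundant of them, CCCTAA in place of gggcgttttc (chr16:92520184-92520193) and TTAAAACC in place of ggcgttt (chr16:92520185-92520191), had 8 reads each in replicate 2 and 0 in replicate 1. At Site 9 same-strand copies were in 592 and 775 reads and opposite-strand copies in 663 and 545 reads. Shorter inserts below the 6-bp limit could match as well. The TTTCA insert of the first Site 7 allele shown occurs at chr16:92520190-92520194, 5 bp right of the cut, and with the retained bases beside it the match is 9 bp long.

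**Figure D4:**
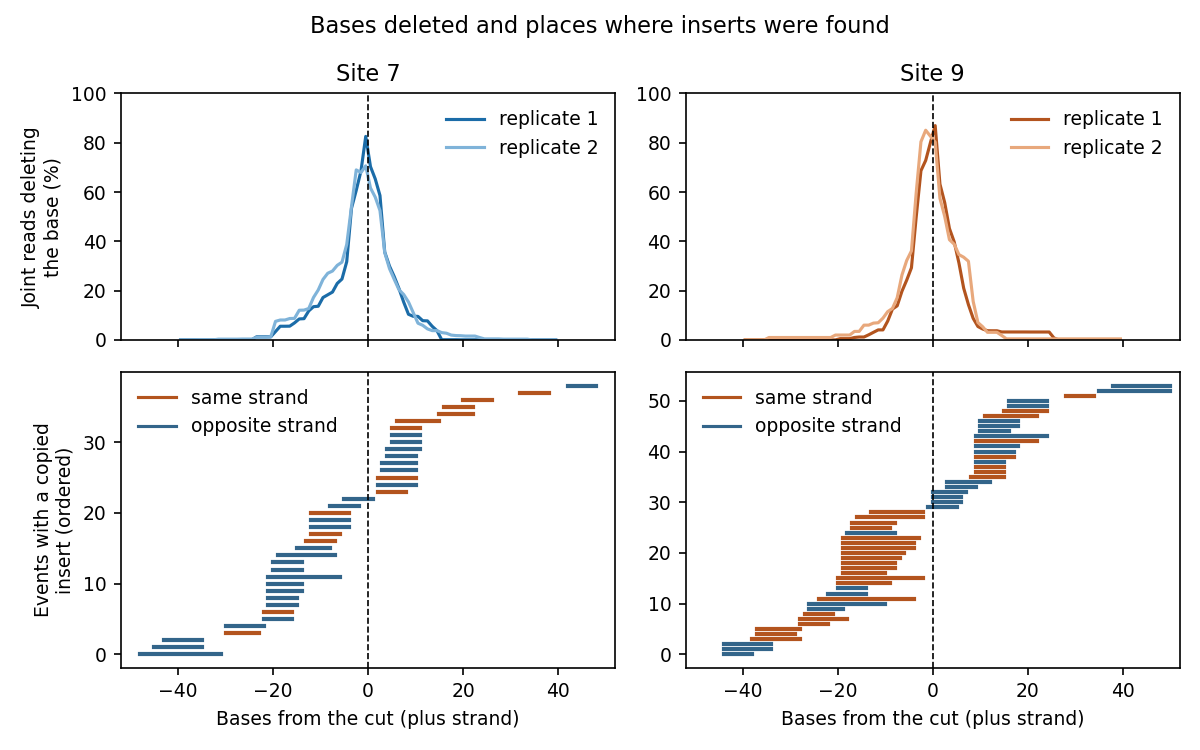
The upper panels give the percent of joint reads that lack each base, by its distance in bases from the cut on the plus strand, for each replicate. The lower panels give the place of each copied insert in the flank as a bar, 39 events at Site 7 and 54 at Site 9, coloured by strand. The position of the losses follows from the definition of joint events, and the matches lie on both sides of the cut, mostly within 20 bp.

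Inserts without a deletion were searched the same way for comparison. Of those, 8.24% and 8.95% were copied at Site 7 and 8.92% and 9.60% at Site 9. The inserts of joint events differed from them by -0.285 and 3.998 percentage points at Site 7 and 5.91 and 9.68 points at Site 9, a mean of 4.83 points (exact two-sided sign-flip permutation test, p = 0.25, adjusted p = 0.375). With a match of at least 8 bp in place of the whole insert, the mean difference turned to -5.95 points. No difference in copying between inserts with and without a deletion was therefore shown.

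Some member reads matched the opposite strand of their own amplicon over long stretches. For each member read, the stretch from 5 bp before its first to 5 bp after its last difference from the reference was compared with the opposite strand of the amplicon. This search was added after the alleles had been seen. The unedited reference matches its own opposite strand over at most 8 bp at either site. A match of at least 20 bp was in 6.71% and 8.26% of member reads at Site 7 and in 5.41% and 1.204% at Site 9, and in 0% of reads for the opposite strand of the other site. A match of at least 30 bp was in 3.92% and 5.52% at Site 7 and 2.95% and 1.18% at Site 9. The longest was 85 bp at Site 7 and 81 bp at Site 9.

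In the most abundant such reads a segment beside the cut stood in reverse orientation at about the place it has in the reference. The lines below show the changed stretch with the opposite-strand match in capitals, which can run into retained bases at its ends. The Site 9 example matches 54 bp right of the cut (chr6:92370123-92370176) and had 106 reads in replicate 1 and 0 in replicate 2. Its first and last differences from the reference lay 1 bp left and 50 bp right of the cut. The Site 7 examples match 34 bp left of the cut (chr16:92520147-92520180), with 90 reads, and 54 bp right of the cut (chr16:92520188-92520241), with 29 reads, all in replicate 1.
Site 9, right of the cut: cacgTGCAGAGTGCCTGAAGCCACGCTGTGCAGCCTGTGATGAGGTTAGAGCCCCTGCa
Site 7, left of the cut: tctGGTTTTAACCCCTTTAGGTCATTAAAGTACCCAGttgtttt
Site 7, right of the cut: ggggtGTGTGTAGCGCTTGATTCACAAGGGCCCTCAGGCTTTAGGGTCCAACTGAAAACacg

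The aligner split such reads into several short gaps and mismatches, so their deleted and inserted lengths depend on that split. Reads with at least 5 mismatches made up 11.5% and 19.04% of member reads at Site 7 and 8.16% and 10.4% at Site 9. Leaving out the reads with an opposite-strand match of at least 20 bp left shares of 1.15% and 0.934% of modified reads at Site 7 and 3.23% and 3.34% at Site 9. The difference between own and other window in copying was then 11.7 points in place of 12.6.

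Inserts of 20 to 39 bp were also searched in the whole mm9 genome. Site 7 had 54 such distinct inserts and Site 9 had 84. At Site 9, 42 (50%) had a match of at least 8 bp to the amplicon and were neither a tandem repeat nor found whole elsewhere. At Site 7 there were 14 such inserts (25.9%). Tandem repeats of a unit of 1 to 6 bp made up 13 inserts (15.5%) at Site 9 and 3 (5.56%) at Site 7. A further 8 inserts (14.8%) of Site 7 occurred once in the genome, on chromosome 16 outside the amplicon. Site 9 had 0 inserts with 1 place in the genome, and its tandem repeats also occur just outside its amplicon, among many other places. Another 6 inserts at each site were found elsewhere, at 1 to 47336 places. The last 23 inserts at each site (42.6% and 27.4%) fell in none of these classes. Inserts of 1 allele that differ by a repeat unit or a base were counted separately, so these counts are not numbers of repair events.

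**Figure D5:**
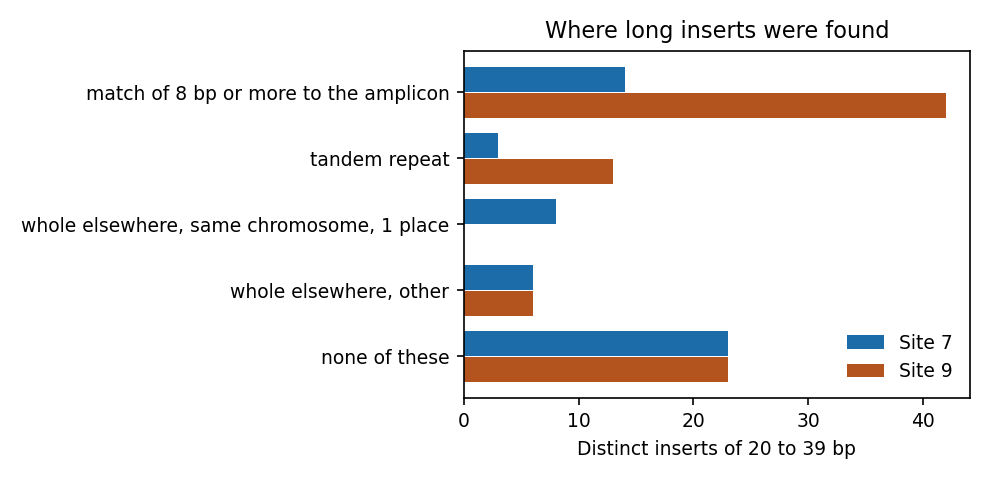
Distinct inserts of 20 to 39 bp in joint events (x axis, number of inserts) by where their sequence was found, with each insert in 1 class. Site 9 leads in matches to the amplicon (42 against 14) and tandem repeats (13 against 3), and the 8 inserts with a unique place elsewhere on the chromosome of the site are all from Site 7. The classes rest on exact matches.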

How the data were processed

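Amplicons around Site 7 and Site 9 were sequenced from mESC pools, 2 libraries per site. The authors trimmed reads (Trim Galore 0.3.1 per the labels), aligned them with CRISPResso, and deposited, per allele, a read count, its percent of aligned reads, and numbers of deleted, inserted and substituted bases. The percent was not used further. Rows were summed without a minimum. No values were normalised. Members and searches were chosen with earlier results of these data known.

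Gap runs were read from the alignments with Python 3.11.15, ignoring ends. The insertion nearest the cut, 3 bp from the PAM, was joined with gaps and mismatches at most 2 bases away. Further ones were then added in steps of at most 2 bases. Amplicons and long inserts were located on mm9 by exact search, allowing no mismatch. The share of sites was compared by an exact permutation test of libraries, and within-library differences by exact sign-flip tests with scipy 1.17.1 and Benjamini-Hochberg adjustment over 6 comparisons. Code was tested on simulated alleles with exactly placed gaps and a wider cut distance than the one used here. Those alleles did not pass through the aligner, so the test does not cover how real reads were split. A depth floor of 3 reads equals 0.000757% to 0.00131% of modified reads. Named alleles were, per site, the 5 with the highest mean percent of modified reads and the top net gain and equal-length event. The top 3 copied inserts per strand and the longest with 10 reads in each library were added, and some were left out of the text. Reads called unmodified did not count in the ranking. A Site 7 event with 0 reads in replicate 1 and 100 in replicate 2 (chr16:92520165-92520182) was not among the 5. The inverted, separate and long-insert examples were chosen after their values were seen.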

Additional observations from a re-analysis of the deposited data

How the results depend on the processing

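Of 105 alternative values, 88 kept the direction of the value reported and 17 did not. The higher share at Site 9, the lower GC content of inserted bases and the excess of inserts in the own flank kept their direction in all of theirs. The share difference ranged from 0.0826 to 2.38 points, and the GC difference from -28.6 to -12.5 points. Pairing libraries by replicate number as a block gave 2.29 points with an exact sign-flip p = 0.5, the smallest value 2 pairs can give, and nothing in the labels says that a number marks a shared batch. The median of deleted minus inserted bases, averaged over libraries, became 0 bp (1 bp in both Site 7 and -1 bp in both Site 9 libraries) when distinct events, unjoined gaps, joining over 10 bases, only simple alignments, unjoined mismatches, a deletion within 10 bp or no inverted reads were used, and -1.75 bp with insertions within 3 bp of the cut. The deletions of joint events minus simple deletions became -0.5 bp with insertions within 3 bp of the cut, -21.5 bp over distinct events, -2.25 bp with unjoined gaps, -0.25 bp with simple alignments and -1 bp with unjoined mismatches. Inserts with minus without a deletion became -4.75 bp over distinct events, and for copying -5.95 points with a match of at least 8 bp and -4.12 points when inserts also had at least 8 bp. Leaving out replicate 1 or 2 gave 0 to 0.5 bp for deleted minus inserted length, 1 to 1.5 bp against simple deletions, 6 to 6.5 bp against insertions, 9.98 to 15.2 points for own against other flank, 2.81 to 6.84 points for copying with and without a deletion and -21.5 to -18.7 points for GC. The cause of these changes was not tested. The searches without inverted reads, with simple alignments, with unjoined mismatches and with 8-bp inserts were added after the data were seen. With 4 libraries the exact tests used could not pass 0.05, whatever the read depth.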

Other observations

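Some long inserts matched sequence beside the amplicon or repeats. The 8 inserts found once in the genome on chromosome 16 lay between 124 and 1504 bp left of the cut, within Clic6 and outside its annotated exons, 6 on the plus and 2 on the minus strand. They held 31 reads of replicate 2. This split between replicates rests on exact matching. In a search added after the data were seen, with at most 1 mismatch and within 2000 bp of the cut but outside the amplicon, 11 inserts of Site 7 were placed, with 106 reads in replicate 1 and 32 in replicate 2. One of them, with 68 reads in replicate 1, differs by 1 base from chr16:92519915-92519939, which another insert with 5 reads in replicate 2 matches exactly. Of the exact matches, the most abundant had 8 reads and matches chr16:92518655-92518680 on the minus strand, and the next had 7 reads and matches chr16:92520018-92520041 on the plus strand. One insert of Site 7 in 31 reads of replicate 1 repeats the unit AACCCT, the repeat of vertebrate telomeres, and it occurs at 2032 places in the genome. The same search placed 15 inserts of Site 9, with 66 reads in replicate 1 and 282 in replicate 2, and all lay on chromosome 6 between 92369925 and 92370030, left of the amplicon. They include all 13 tandem repeats, with the units AC and AG. Such repeats occur at many places, so their source cannot be told from the letters. The AG repeat below had 66 reads.
Site 7, 8 reads: TGGAGACATGCTCTCCAGCTCTCTGT
Site 7, 7 reads: GCCCCCCAGCAGGTATCCATGCTT
Site 7, telomere unit: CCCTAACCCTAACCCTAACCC
Site 9, AG unit: AGAGAGAGAGAGAGAGAGAGA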
